A study of Mus musculus with 6 samples.

Results

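Mir708, Mir28a and Mir151 are 3 mouse genes that encode the microRNAs miR-708, miR-28a and miR-151, each transcribed inside an intron of a protein-coding gene. They were chosen by name as a group of related intronic miRNAs, 3 of 2207 miRNA features and of 30638 features in the count table. The choice was made with the knockout and control values of these genes known, so their differences are given as a description, with no p. Small RNA had been sequenced from hearts of 3 Elac2 knockout and 3 control C57BL/6 mice, from inserts of 15 to 100 nt. The knockout mice (titled L/L, cre, genotype Elac2 -/-) carry a loxP-flanked Elac2 exon removed by cre under the muscle creatine kinase promoter, which is active in striated muscle cells. Heart cells in which that promoter is silent are not targeted. The control mice are titled L/L with no cre and given the genotype Elac2 +/+. The libraries came from whole hearts. The labels state no sex, and their one possible hint of age is a code, 4W, in the names of all 6 libraries that they do not explain.

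A miRNA is cut from a hairpin in a longer transcript by Drosha and then Dicer, and its seed, bases 2 to 8 of the mature strand, selects the messenger RNAs that it represses. Intronic miRNAs on the strand of their host gene are usually made from the host's transcript. miR-708 lies in Tenm4, a teneurin cell surface protein gene, and is known to be induced with it during endoplasmic reticulum stress. miR-28 lies in Lpp, a focal adhesion protein gene, and miR-151 lies in Ptk2, the gene of focal adhesion kinase. Elac2 encodes RNase Z, which cuts the 3′ trailer from precursor tRNAs in the nucleus and mitochondria.

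The mature sequences (RefSeq, GRCm38.p6) are shown because they define how the genes are related. Both arms of Mir708 and Mir28a and the mature form of their relative Mir28b are given 5′ to 3′, with bases 2 to 8 in capitals.
mmu-miR-708-5p: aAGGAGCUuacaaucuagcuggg
mmu-miR-28a-5p: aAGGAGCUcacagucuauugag
mmu-miR-28b: aGGAGCUCacaaucuauuuag
mmu-miR-708-3p: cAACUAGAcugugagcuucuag
mmu-miR-28a-3p: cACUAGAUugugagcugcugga
The 5p arms of miR-708 and miR-28a had the same seed, AGGAGCU, and no other of the 1738 mature sequences in the table had it. Their first 8 bases were identical, and over 22 positions they differed at 6. Counted from 1 at the 5′ end, with the miR-708 base first, the differences were U9C, A13G, G18U, C19U, U20G and G21A. In miR-28b the same 7 bases start at position 1, so its seed is shifted by 1 base. The seeds of the 3p arms differed, although 17 of 21 bases matched when miR-708-3p was shifted by 1 base. Sequences were matched for 2 of the 3 genes, Mir708 and Mir28a. No sequence of Mir151, or of Mir28c, another gene named for the miR-28 family, was found in the set used here. Their relation to Mir708 and Mir28a was therefore not checked. A seed common to all 3 genes was not established.

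All 3 genes lie in introns on the strand of their host, in GRCm38. Mir708 (chromosome 7, 96249424 to 96249532, plus strand) is in intron 1 of 32 of Tenm4, an intron of 144585 nt, and starts 38653 nt after the exon before it. Mir28a (chromosome 16, 24827855 to 24827940, plus strand) is in intron 8 of 12 of Lpp, 65578 nt after the preceding exon. Mir151 (chromosome 15, 73254815 to 73254882, minus strand) is in intron 23 of 33 of Ptk2, 2151 nt after the preceding exon, and within an intron of the antisense gene 1700085D07Rik. Intron numbers refer to the protein-coding transcript with the most exons. No exon of another feature of the table with a GENCODE position overlapped any of the 3 genes on either strand. Host mRNAs were not analysed here. The 10 other features of the table within Tenm4, among them Mir6394 on the same strand, had 0 counts in all 6 libraries.

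Mir708 was far higher in knockout hearts. The gene had 1395, 2210 and 1881 counts in knockout replicates 1 to 3, against 183, 125 and 95 counts in control replicates 1 to 3. Scaled by TMM factors, as counts per 1e6 library counts (CPM), these were 101, 175 and 141 CPM in knockout hearts, against 11.9, 7.04 and 5.19 CPM in control hearts. Every knockout heart lay above every control heart, and the lowest knockout value was 8.52 times the highest control value. Groups without overlap, in either direction, were common, at 63.0% of all 1144 features tested and 41.7% of the 312 miRNA features tested. Mir708 averaged 139 ± 36.8 CPM in knockout hearts and 8.04 ± 3.46 CPM in control hearts (SD, n = 3 each), a log2 fold change of 4.12 (SE 0.34), or 17.4 times. In the authors' deposited table the log2 fold change was 4.15 (SE 0.31). The lowest control count, 95, has an exact 95% Poisson interval of 76.9 to 116, which covers counting error only and lies far below every knockout count. In whole hearts, more cells that express a miRNA and more of it per cell cannot be told apart.

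**Figure D1:**
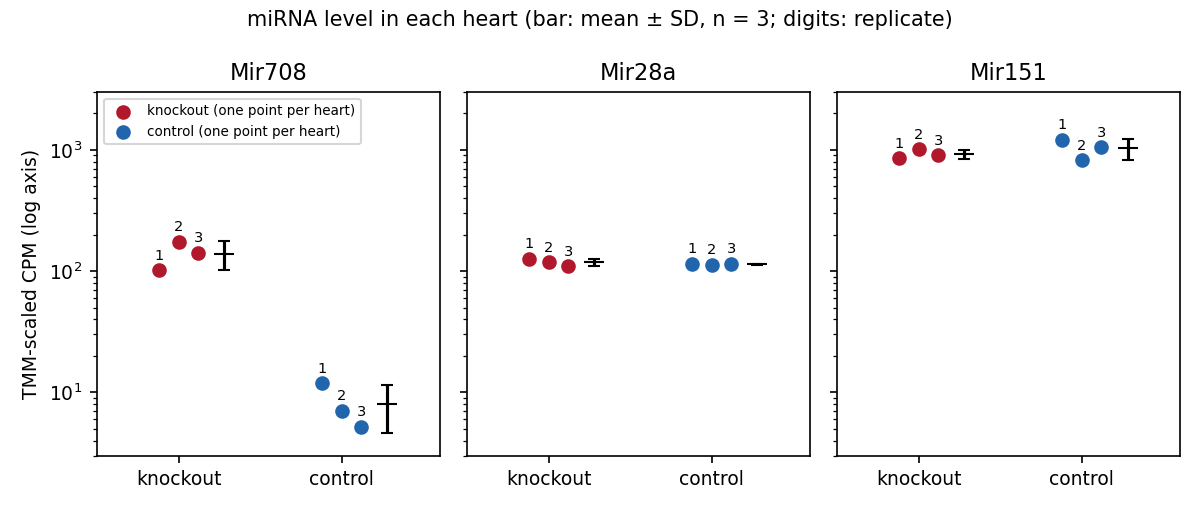
Level of Mir708, Mir28a and Mir151 in each of 3 knockout and 3 control hearts, in TMM-scaled CPM on a log axis, with mean ± SD beside the points. Mir708 was at 101 to 175 CPM in knockout hearts and 5.19 to 11.9 CPM in control hearts, while the groups overlap for Mir28a and Mir151.

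Mir28a, which carries the same 5p seed, was at similar levels in both groups. It had 127, 118 and 110 CPM in knockout hearts, against 115, 113 and 115 CPM in control hearts. The control hearts lay close together, within the range of the knockout hearts. Mir28a averaged 118 ± 8.66 CPM in knockout hearts and 114 ± 1.15 CPM in control hearts (SD, n = 3 each), a log2 fold change of 0.05 (SE 0.17). Its 95% interval ran from -0.28 to 0.39.

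Mir151, the gene with the most reads of the 3, also overlapped between the groups. It had 855, 1008 and 900 CPM in knockout hearts, against 1217, 817 and 1052 CPM in control hearts. The control hearts spread more widely, and all 3 knockout values lay within their range. Mir151 averaged 921 ± 78.6 CPM in knockout hearts and 1029 ± 201 CPM in control hearts (SD, n = 3 each), a log2 fold change of -0.16 (SE 0.18) with a 95% interval from -0.51 to 0.19. The authors' deposited table gave log2 fold changes of 0.09 (SE 0.17) for Mir28a and -0.12 (SE 0.21) for Mir151.

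The direction for Mir28a and Mir151 depended on the library scaling, and that for Mir708 did not. Over 15 settings, the TMM fit included, the log2 fold change of Mir708 stayed between 3.27 and 4.61. These settings are the 6 scalings and fits with no filter, a replicate block, a left-out library or DESeq2. Mir28a was above 0 in 12 of these 15 settings and below it in 3, from -0.80 with factors from snoRNA and scaRNA genes to 0.58 with factors from snRNA and rRNA genes. Mir151 was above 0 in 5 and below it in 10, from -1.01 to 0.37 under the same pair of scalings. Over the 6 scalings alone, Mir28a was at 0.05 (TMM), 0.03 (DESeq2 size factors), -0.13 (miRNA factors) and -0.29 (total counts) beside those extremes. Mir151 was then at -0.16, -0.19, -0.33 and -0.51 in the same order. Relative to the median of all tested miRNA features, which moves with the scaling, Mir708 was 3.86 to 3.93 higher on the log2 scale over 6 scalings. On that relative scale Mir28a stood at -0.17 to -0.15 and Mir151 at -0.38 to -0.36.

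**Figure D2:**
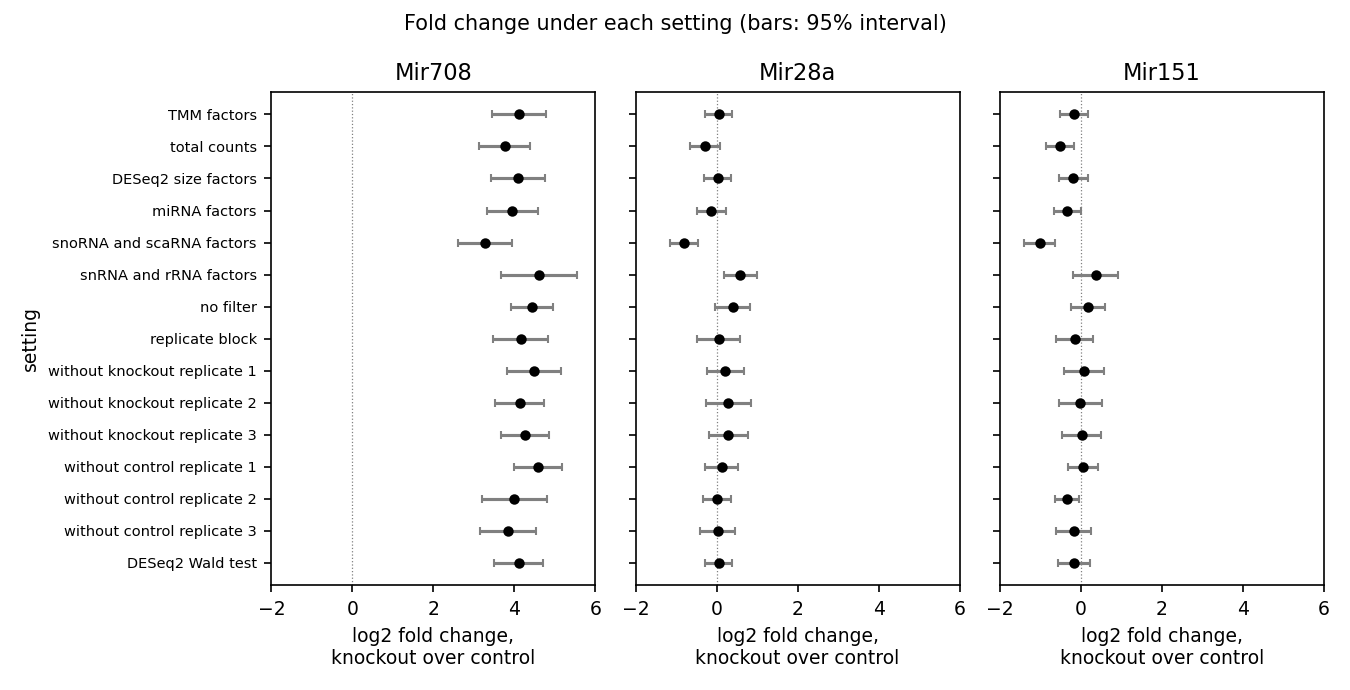
Log2 fold change, knockout over control, of the 3 genes under 15 settings, of which the uppermost is the TMM fit, with bars for the 95% interval. Mir708 stays between 3.27 and 4.61, while Mir28a and Mir151 lie on either side of 0 depending on the setting.

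Ratios of raw counts within a library are free of any scaling, and they set Mir708 apart from both other genes. Mir708 had 0.798, 1.48 and 1.29 counts per count of Mir28a in knockout hearts, against 0.104, 0.0624 and 0.0452 in control hearts. Mir708 thus had more counts than Mir28a in 2 of 3 knockout hearts and in 0 of 3 control hearts. On the log2 scale this ratio averaged 0.20 ± 0.47 in knockout hearts and -3.91 ± 0.61 in control hearts (SD, n = 3 each), a difference of 4.12. The ratio of Mir708 to Mir151 averaged -2.76 ± 0.29 in knockout hearts and -7.07 ± 0.52 in control hearts, a difference of 4.31. The ratio of Mir28a to Mir151 was -2.96 ± 0.18 in knockout hearts and -3.15 ± 0.28 in control hearts, a difference of 0.19, and its groups overlapped. Both Mir708 ratios restate the difference of Mir708 given above and are not separate support for it. The difference of 0.19 in the ratio without Mir708 was below the SD of the control hearts (0.28) and just above that of the knockout hearts (0.18).

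**Figure D3:**
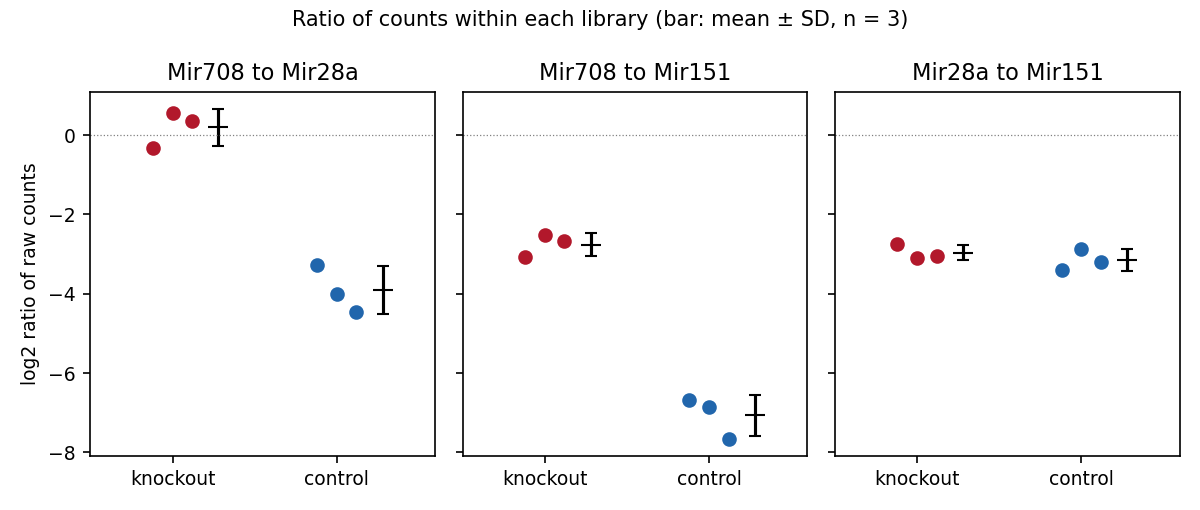
Log2 ratio of raw counts of each pair of genes within a library, for 3 knockout and 3 control hearts, with mean ± SD. Both ratios with Mir708 separate the groups by over 4 log2 units, and the ratio of Mir28a to Mir151 differs by 0.19 with overlap.

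The genes found to share the seed AGGAGCU were also summed, without Mir28c, whose seed was not checked. Mir708 and Mir28a together had 228, 293 and 251 CPM in knockout hearts, against 126, 120 and 120 CPM in control hearts. Every knockout sum lay above every control sum, and the means were 257 ± 32.8 CPM in knockout hearts and 122 ± 3.75 CPM in control hearts (SD, n = 3 each), 2.11 times higher. This ratio of the means was 1.17 to 3.06 over 6 scalings, and groups without overlap were found in 5 of them. Scaled by snoRNA and scaRNA genes, the sums overlapped, at 168, 226 and 183 CPM in knockout hearts, against 173, 152 and 166 CPM in control hearts. For single features, groups without overlap made up 41.7% of the miRNA features tested and 63.0% of all features. The share of Mir708 in the sum needs no scaling. Mir708 supplied 44.4%, 59.7% and 56.4% of the summed counts in knockout hearts, against 9.40%, 5.87% and 4.32% in control hearts. The exact (Clopper-Pearson) 95% binomial interval was 42.6% to 46.1% for the lowest knockout share and 8.14% to 10.8% for the highest control share, and covers counting error only. The counts are per gene and hold both arms, so the sum is not a measure of the 5p arms alone. The share restates the count ratio of Mir708 to Mir28a, and the sum contains the known difference of Mir708. Neither is separate support for that difference.

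**Figure D4:**
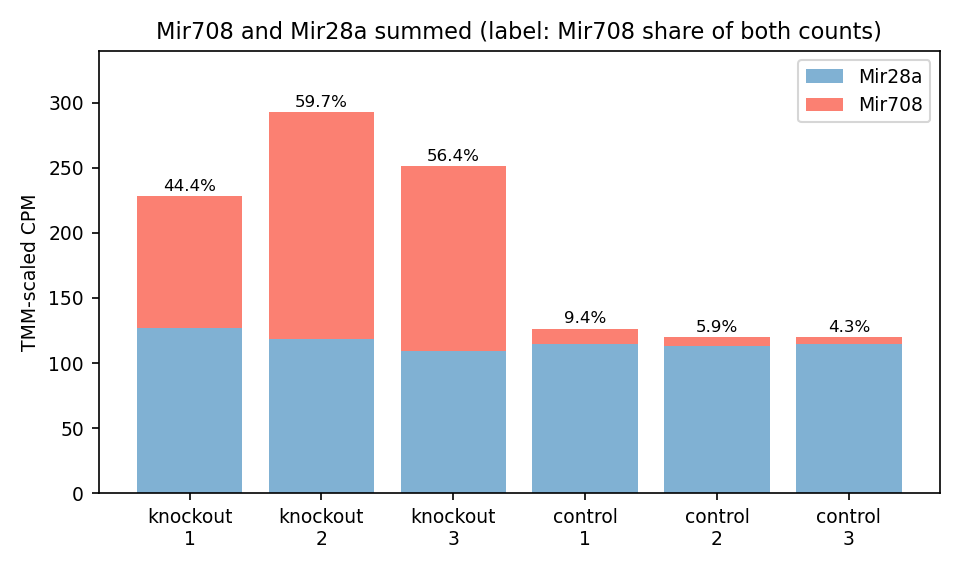
Mir708 and Mir28a summed in each heart, in TMM-scaled CPM from 0, with the share of Mir708 in both genes' counts above each bar. The part from Mir28a is of like height in all 6 hearts, and Mir708 makes up 44.4% to 59.7% in knockout and 4.32% to 9.40% in control hearts.

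The order of Mir708 and Mir28a depended on the measure. By mean CPM, Mir708 was above Mir28a in knockout hearts (139 against 118 CPM) and below it in control hearts (8.04 against 114 CPM). Divided by hairpin length, the order of the 3 genes was the same in both groups, while the distance of Mir708 from the others was not. Per 100 nt of annotated hairpin, Mir151 was highest in knockout hearts (1355 CPM), followed by Mir28a (137 CPM) and Mir708 (128 CPM), and the ranges of Mir28a and Mir708 overlapped there. In control hearts the same order held at 1513, 133 and 7.37 CPM per 100 nt, and no ranges overlapped. The mature arms of Mir708 and Mir28a are 22 or 23 nt long, while the annotated hairpins are 109 and 86 nt. Division by hairpin length therefore need not follow the number of mature molecules. Of all miRNA counts, Mir708 took 0.0388% ± 0.00648 in knockout hearts and 0.00215% ± 0.000853 in control hearts, Mir28a 0.0338% ± 0.00652 and 0.0310% ± 0.00217, and Mir151 0.261% ± 0.0192 and 0.279% ± 0.0581 (SD, n = 3 each). Hearts of a group varied most for Mir708, with a coefficient of variation of 26.4% in knockout and 43.1% in control hearts. Control replicate 1 had the highest Mir708 level of its group, 2.29 times the lowest. For Mir28a the coefficients were 7.33% in knockout and 1.01% in control hearts, and for Mir151 8.54% and 19.5%.

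The relatives Mir28b and Mir28c, named for the same family, were rare. Mir28b had 0, 0 and 1 counts in knockout and 0, 0 and 1 counts in control hearts, too few for a comparison. Mir28c had 23, 20 and 26 counts in knockout hearts, against 50, 18 and 35 counts in control hearts. Its groups overlapped, and the log2 fold change was -0.23 (SE 0.39, adjusted p = 0.636 in the edgeR fit over all features).

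Over the whole table, 50.2% of the 1144 features tested were called by edgeR at an adjusted p under 0.05, 23.2% as higher and 27.0% as lower in knockout hearts. Of the 312 miRNA features 23.4% were called, 53 higher (17.0%) and 20 lower (6.41%). Of the 126 miRNA features tested that lie in an intron of a protein-coding gene on its strand, 19.8% were called, 17 higher (13.5%) and 8 lower (6.35%), and the median log2 fold change was 0.13. The other 186 miRNA features had 36 higher and 12 lower calls and a median of 0.22. The miRNA class follows the deposited gene type and holds some features whose names are not those of miRNAs. Among them, Snord43 (log2 fold change 1.71, classed as intronic) and n-TStga1 (2.77) were called higher. The balance of directions rests on the scaling. Higher and lower calls were 101 and 659 (all), 13 and 156 (miRNA) and 2 and 64 (intronic) with factors from snoRNA and scaRNA genes. With factors from snRNA and rRNA genes they were 406 and 224 (all), 119 and 4 (miRNA) and 44 and 0 (intronic). Total counts gave 170 and 431, 20 and 64, and 4 and 27 in the same order, and miRNA factors 190 and 357, 26 and 38, and 6 and 14. By log2 fold change Mir708 ranked 3 of 312 miRNA features and 14 of all 1144 features, below Mir216b and Mir217 among the miRNAs, which are named after their values were seen. It was the highest of the 126 intronic ones, of which it alone passed a log2 fold change of 2. Mir28a ranked 196 and Mir151 229 of 312. Within 0.25 of 0 on the log2 scale lay 110 of the 312 miRNA features, Mir28a and Mir151 among them.

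**Figure D5:**
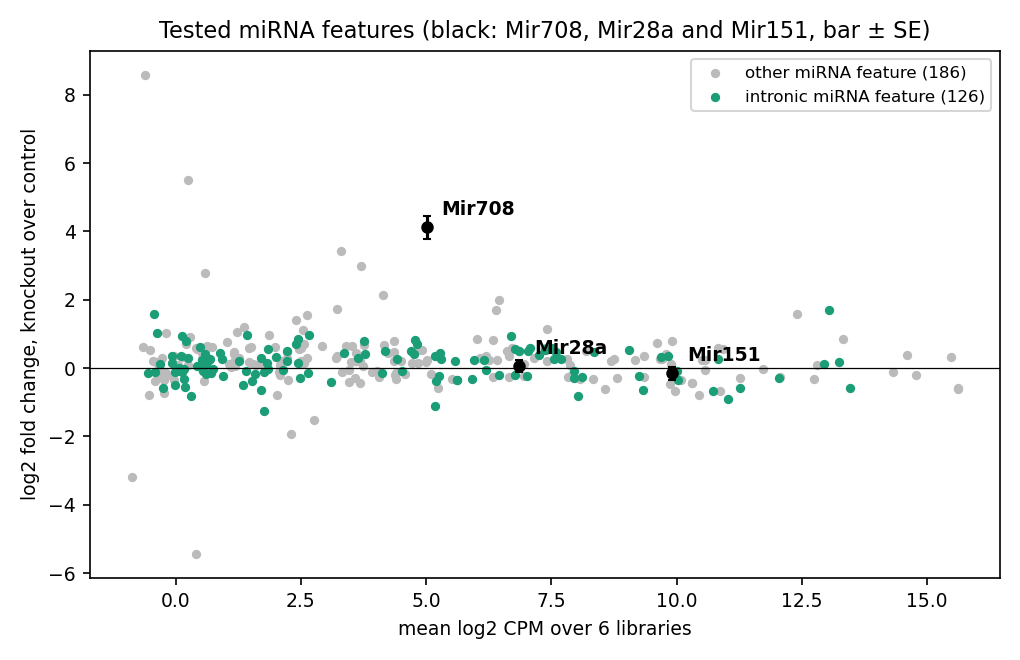
Log2 fold change, knockout over control, against mean log2 CPM over 6 libraries for 312 tested miRNA features, 126 of them intronic, with the 3 genes in black (bars ± SE). Mir708 stands above all other intronic miRNA features at a log2 fold change of 4.12, while Mir28a and Mir151 lie near 0.

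The profile most like that of Mir708 was sought among tested miRNA features of at least 10 CPM in a group, by the root mean square difference of centred log2 CPM over the 6 libraries. This measure includes the difference between the groups that was known when Mir708 was chosen. Likeness to Mir708 is therefore no separate support for that difference. The nearest was Mir1983 at 0.52, with 31.6 ± 5.07 CPM in knockout and 2.97 ± 0.437 CPM in control hearts (SD, n = 3 each). Mir7688 followed at 0.64, with 36.7 ± 3.58 CPM in knockout and 4.61 ± 1.37 CPM in control hearts. Next was Mir34a, a p53-induced miRNA, at 1.16, with 38.6 ± 10.5 CPM in knockout and 8.78 ± 4.25 CPM in control hearts. All 3 reached the 10 CPM minimum through the knockout hearts only. None of these is intronic in a protein-coding gene on its strand, and Mir34a shares bases with Gm37795, so its reads are uncertain. Shared bases were checked only against features with a GENCODE position. Reads of Mir1983 and Mir7688 that come from other RNAs are thus not excluded. Mir28a was nearest to Mir484 (0.10), Mir125b-2 (0.10) and Mir27a (0.12), and Mir151 to Mir195a (0.10), Mir671 (0.11) and Mir674 (0.12). Mir125b-2 shares bases with C130023A14Rik, so its reads are uncertain. Mir28a and Mir151 were 0.21 apart, against 2.09 between Mir28a and Mir708 and 2.17 between Mir151 and Mir708.

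Among 11 miRNAs linked in the literature to the unfolded protein response, the stress pathway in which miR-708 is known, 7 were tested. Calls were made for 2 as higher and 0 as lower, beside 17.0% higher and 6.41% lower among all tested miRNA features, and the median log2 fold change of the 7 was 0.25, against 0.21 over all tested miRNA features. The 2 that rose were Mir34a (log2 fold change 2.13, SE 0.34, adjusted p = 0.000307 by edgeR) and Mir93, of the miR-106b cluster (0.82, SE 0.22, adjusted p = 0.00951 by edgeR). The list was not sorted by the reported direction of each link, and the state of the pathway was not tested. Mir34a was called higher in all 6 scalings, while Mir93 was called higher in 3 and stood at -0.02 with factors from snoRNA and scaRNA genes. Mir204 (log2 fold change -0.38) was not called with TMM factors, but 3 of 6 scalings called it lower. Mir125b-2 had 997 ± 1.26 CPM in knockout and 911 ± 80.1 CPM in control hearts, and Mir25 911 ± 71.2 CPM in knockout and 766 ± 102 CPM in control hearts (SD, n = 3 each), and neither was called. Mir211, which is known as a target of the same stress pathway, averaged 0.849 CPM in knockout and 1.26 CPM in control hearts and was not called. Mir30c-2, Mir17 and Mir125b-1 had 0 counts in all libraries, and each shares bases with another feature on its strand.

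Markers of some heart cell types moved beside Mir708, and their part in its difference was not tested. Such movement was common. With TMM factors, 23.4% of all tested miRNA features were called, and 41.7% had groups without overlap (50.2% and 63.0% of all features). Calls reached 54.2% of miRNA features with snoRNA and scaRNA factors and 39.4% with snRNA and rRNA factors. They were 26.9% with total counts and 20.5% with miRNA factors. Shares without overlap were not computed for these scalings. The 4 fibroblast miRNA genes summed to 2217 to 2344 CPM in knockout hearts, against 1156 to 1627 CPM in control hearts. Of them Mir199a-1 (log2 fold change 0.79) and Mir199b (0.74) rose (adjusted p = 0.00183 and 0.00402 by edgeR), and Mir199a-2 and Mir214, which share bases with Dnm3os, were at 0. Under the snoRNA-based scaling Mir199a-1 stood at -0.05 and Mir199b at -0.09, and the summed levels overlapped. The 7 cardiomyocyte genes summed to 72626 to 93228 CPM in knockout hearts, against 117767 to 147949 CPM in control hearts. Of them Mir208b rose, Mir1a-1 (log2 fold change -0.57) and Mir1a-2 (-0.61) fell and 4 were not called, and the miR-1 genes, which mark heart and skeletal muscle, were abundant in both groups. With factors from snRNA and rRNA genes neither miR-1 gene was called, and the cardiomyocyte sums overlapped. Mir208b was called higher in 3 of 6 scalings and stood at -0.05 under the snoRNA-based one. The miR-1, miR-199 and miR-486 genes have near-identical copies, between which reads cannot be split with certainty. The 4 leukocyte genes summed to 159 to 193 CPM in knockout hearts and 125 to 156 CPM in control hearts, with Mir150 lower, Mir142 not called, and Mir223 and Mir155, which share bases with other features, at 0. The leukocyte sums overlapped with miRNA factors and with total counts, and with snoRNA and scaRNA factors they lay wholly lower in knockout hearts, at 0.655 times the control mean. The sums of the 4 red cell genes overlapped, at 3623 to 4580 CPM in knockout and 4570 to 6511 CPM in control hearts, with Mir144 higher and Mir486 and Mir3107 lower. They lay wholly lower in knockout hearts with miRNA factors, snoRNA and scaRNA factors and total counts, at 0.651, 0.411 and 0.585 times the control mean. Of the 6 scalings, 3 called Mir144, which was just below 0 under the snoRNA-based one, and all but the one from snRNA and rRNA genes called Mir486, Mir3107 and Mir150. With TMM factors sums also overlapped, with no member called by edgeR, for Mir126a (endothelial), for Mir143 and Mir145a (smooth muscle), and for the epithelial (5 genes), neural (6 genes) and hepatocyte (Mir122) lists. Except for Mir122, whose groups overlapped in all 6 scalings, these sums lay wholly lower in knockout hearts in 3 of 6 (miRNA factors, snoRNA and scaRNA factors, total counts). The endothelial sum was then at 0.808, 0.509 and 0.720 times the control mean, and 3 of 6 scalings called Mir126a and Mir143 lower.

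Total counts were 14505705 to 15271036 in knockout libraries and 13510061 to 16248673 in control libraries. Features with any count numbered 2995 to 3160 in knockout libraries and 4664 to 6018 in control libraries. The cause of this difference was not tested. TMM factors were 0.828 to 0.950 in knockout and 1.09 to 1.15 in control libraries. The labels call the 3 mice of a group separate replicates. No value of Elac2 itself was analysed here, and the genotypes rest on the labels.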

How the data were processed

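Whole-number raw counts were deposited for every feature and heart, together with a normalized signal equal, by its values, to those counts over a size factor of the library. The authors also deposited a comparison table with log2 fold changes, p-values and scores (a standard error and a Wald statistic), per the file headers. Build mm10 and the tools featureCounts 1.5.1, Bowtie2 2.2.9, DESeq2 1.16.1 and cutadapt 1.14 are named in the submitters' processing notes. Each mouse had 4 technical replicates, per the design text. Their merging, the strand setting and the handling of multi-mapped reads are not stated there. Reads per gene hold both arms of a hairpin. There were 0 columns of other samples.

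Features kept by filterByExpr (minimum count 10, minimum total 15) were fitted with edgeR 4.0.16 (R 4.3.3; glmQLFit, glmQLFTest, TMM factors, no covariate), and a Benjamini-Hochberg adjusted p under 0.05 over all 1144 features was called. The common biological coefficient of variation was 0.217. An SE is the log2 fold change divided by the square root of the F statistic. Log2 CPM used a prior count of 2. The fit was tested on simulated data. Libraries were distinct (lowest chi-square per degree of freedom 79.1). Positions came from GENCODE M21 (GRCm38), which matched 29738 of 29863 Ensembl IDs. Tables and figures were made with pandas 2.3.3, matplotlib 3.10.9 and SciPy 1.17.1 under Python 3.11.15. DESeq2 1.42.0 served as an alternative.

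The genes and lists were chosen with earlier results of these data known. Named genes were Mir708, Mir28a, Mir151, Mir28b and Mir28c, the 3 miRNAs most alike each of the first 3, and up to 2 of the most abundant genes of each list. The lists were the unfolded protein response and cardiomyocyte, endothelial, smooth muscle, fibroblast, red cell, leukocyte, epithelial, neural and hepatocyte miRNAs. Other scalings, a fit with no filter, a replicate block and leaving out each library were tried.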

Additional observations from a re-analysis of the deposited data

How the results depend on the processing

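With factors from snoRNA and scaRNA genes, Mir708 had a log2 fold change of 3.27, Mir28a -0.80 and Mir151 -1.01, with 169 miRNA and 66 intronic miRNA features called. With factors from snRNA and rRNA genes, Mir28a was at 0.58 and Mir151 at 0.37, with 123 and 44 calls. With total counts Mir28a was at -0.29 and Mir151 at -0.51, and with miRNA factors Mir28a was at -0.13. With no filter Mir28a was at 0.40 and Mir151 at 0.18, with 1141, 121 and 40 calls among all, miRNA and intronic miRNA features. DESeq2 called 907 of 2478 features. The 574, 73 and 25 calls with TMM factors split 265 to 309, 53 to 20 and 17 to 8 into higher and lower. Among miRNA features that split was 13 to 156 with snoRNA and scaRNA factors, 119 to 4 with snRNA and rRNA factors and 113 to 8 with no filter. These scalings moved the median log2 fold change over all features by -0.84 (snoRNA and scaRNA), 0.54 (snRNA and rRNA), -0.34 (total counts) and -0.18 (miRNA).

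Leaving out each library in turn gave log2 fold changes of 3.85 to 4.58 for Mir708, 0.0058 to 0.29 for Mir28a and -0.34 to 0.088 for Mir151. Calls ranged over 486 to 908 for all, 54 to 106 for miRNA and 18 to 37 for intronic miRNA features, and the 908 came without control replicate 1, with 1410 features tested. The within-library log2 ratio differences ranged over 3.84 to 4.44 (Mir708 to Mir28a), 4.01 to 4.50 (Mir708 to Mir151) and 0.06 to 0.34 (Mir28a to Mir151). Deviations of same-numbered hearts from their group means were not positively correlated (r of -0.13, -0.02 and -0.19 across features). Differently numbered hearts were not compared in this way, so whether the numbers pair hearts is not settled. With the replicate block the log2 fold changes were 4.16, 0.05 and -0.14 for Mir708, Mir28a and Mir151, and 536, 59 and 19 features were called. The cause of these shifts was not tested. Depth limits Mir28b and Mir28c most.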
